A study of Caenorhabditis elegans with 2 samples.

Results

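Binding of EFL-1, an E2F-family transcription factor, was read at the genes for mitochondrial ribosomal proteins of Caenorhabditis elegans. The genes are the protein-coding genes of the Ensembl annotation whose symbol starts with mrpl- (large subunit) or mrps- (small subunit). They number 70 of 19973 nuclear protein-coding genes, with 41 in the large and 29 in the small subunit class. Within the annotation a gene was taken by its symbol and not by its binding, while the gene group itself was picked for description with earlier results of these data known. Chromatin immunoprecipitation and sequencing with an antibody to EFL-1 had been done on whole first-stage (L1) larvae of strain MT10430, which carries lin-35(n745). That allele affects the gene for the worm's only retinoblastoma-family pocket protein. Animals of both sexes were pooled. There was 1 group of 2 biological replicates, numbered 2 and 3, and both carried the mutation, so no other genotype, stage or antibody could be compared. A peak list cannot check the genotype, and whole larvae mix all tissues.

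Mitochondria keep a small genome whose messages are read by their own ribosome. All proteins of that ribosome are encoded in the nucleus, made in the cytosol and imported, so subunit genes on many chromosomes must be expressed together with RNAs made inside the organelle. In worms, lowering the amount of several of these proteins is known to slow growth, induce the mitochondrial unfolded protein response and lengthen life. E2F factors are known mainly for genes of DNA replication and mitosis, where they bind promoters with a pocket protein or without it. Many worm genes lie in operons, in which 1 promoter at the front serves a run of genes on the same strand. Such runs are rich in genes for translation and mitochondrial function.

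The authors' IDR list holds 4534 peaks kept by a test of rank agreement. A gene was called bound when the summit of such a peak lay in its window. The window reached from 1000 bp before an annotated 5' end of the gene to 500 bp after it. By this rule 39 of the 70 mitoribosomal genes were bound (55.7%), beside 19.6% of all protein-coding genes (3922 of 19973). No test of this excess was made. The large subunit class had 21 of 41 bound (51.2%) and the small subunit class 18 of 29 (62.1%), an order that turned when only the strongest 2267 peaks were used (16 of 41 and 7 of 29). The 39 genes rested on 38 separate peaks, because mrpl-1 and mrps-24 share a peak. Every mitoribosomal gene was on an autosome, and chromosome III held the most, with 15 of 22 bound beside 30.4% of all genes there. The other counts were 7 of 15 on chromosome I (28% of all genes there), 5 of 12 on II (19.7%), 7 of 11 on IV (20.1%) and 5 of 10 on V (12.9%).

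Peaks at mitoribosomal genes were of middling strength. Strength is the rank of a peak by the authors' signal value, with 1 the strongest, and a gene takes the rank of its strongest summit. The ranks ran from 239 to 4202 with a median of 1924. In percentiles of the IDR list the median was 57.6, beside 60.2 for all bound genes, and 6 of the 39 genes (15.4%) were among the strongest 453 peaks, beside 14.2% of all bound genes. Bound large subunit genes had a median percentile of 75.3 and bound small subunit genes one of 47.5. Among the strongest 2267 peaks were those of 16 of 21 bound large subunit genes and 7 of 18 bound small subunit genes. This gap between the classes was not tested. Genes of the cytosolic ribosome, 81 by symbol, stood well apart in level, with 74 bound and a median percentile of 89.4.

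The strongest mitoribosomal peak was at mrps-7, whose product is named for a protein that in bacteria nucleates the head of the small subunit. It lay at chromosome IV, 14767767 to 14768023, and the summit was at -170 bp (negative is upstream of the 5' end), with a signal value of 925 where the median IDR peak had 125. It ranked 239 in the IDR list, 227 in replicate 2 and 240 in replicate 3. The peak at mrps-16, another small subunit gene, ranked 279, and 271 and 317 in the replicates (chromosome II, 5474003 to 5474297, summit at -225 bp). That at mrpl-28, a large subunit gene, ranked 297, and 293 and 303 in the replicates (chromosome II, summit at -110 bp). These 3 peaks therefore held nearly the same place in both replicates. Next came mrpl-17 (rank 426, replicate ranks 431 and 417), mrps-21 (429, 485 and 386), mrpl-15 (437, 457 and 408), mrpl-36 (511, 554 and 458) and mrpl-55 (540, 506 and 619). The window of mrpl-36 held 2 summits. The stronger lay at -700 bp, and the one within 300 bp of the 5' end ranked 1505.

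The following large subunit genes were mrpl-37 (rank 611), mrpl-45 (664), mrpl-49 (672) and mrpl-12 (741). The product of mrpl-12 belongs to the family of the ribosomal stalk protein, which recruits translation factors in bacteria, and the mammalian counterpart of mrpl-45 lines the exit tunnel toward the inner membrane. The replicate ranks of these 4 peaks ran from 603 to 847. The small subunit gene mrps-17 (rank 864) and the large subunit genes mrpl-40 (1058) and mrpl-47 (1119) completed the strongest 15. Of these 15 genes 11 encode large subunit proteins. Only 10 of the 15 kept a summit within 300 bp of a 5' end, and 10 did with nearest genes only.

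**Figure D1:**
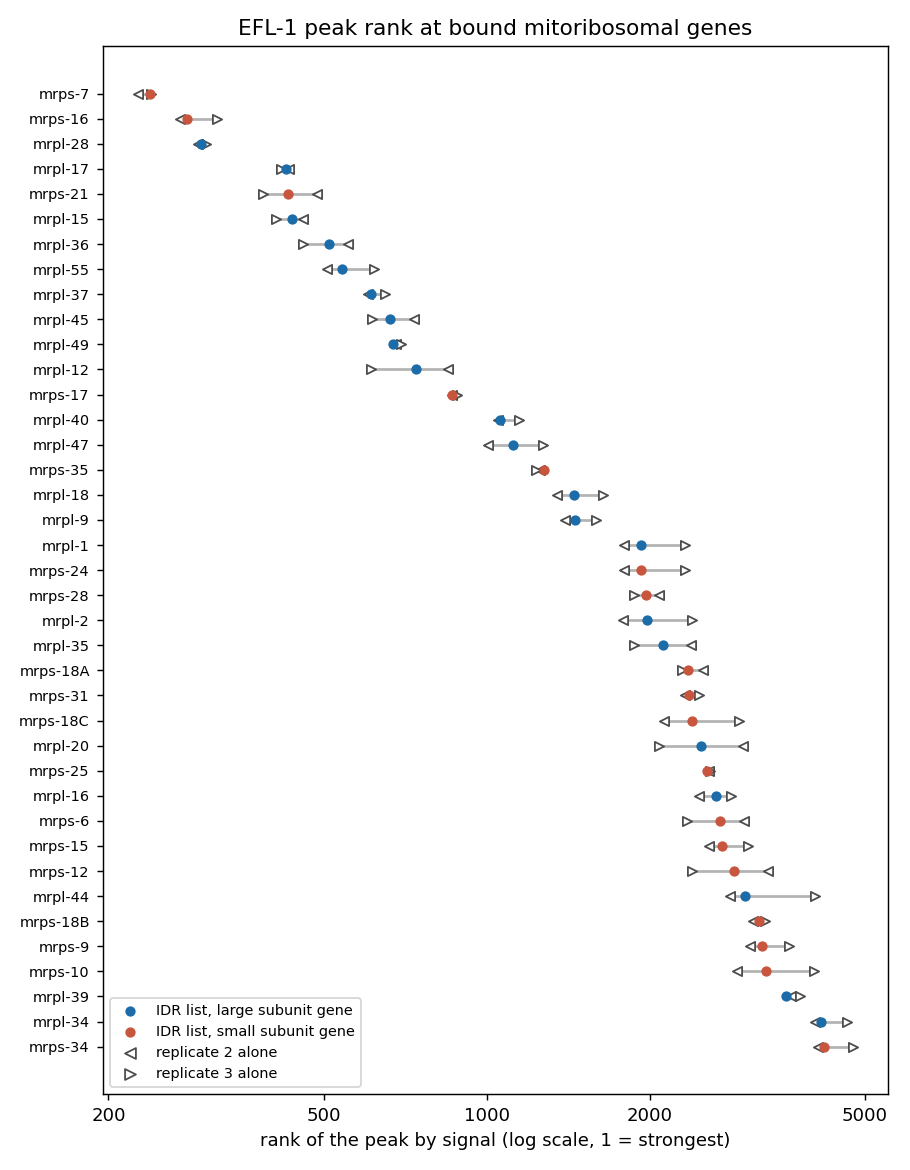
Rank of the strongest EFL-1 peak at each of the 39 bound mitoribosomal genes (log axis, 1 = strongest), with filled points for the IDR list and open triangles for the ranks of the same peak in replicates 2 and 3 alone. Ranks run from 239 at mrps-7 to 4202 at mrps-34, and no gene's replicate ranks differ by more than 1.44-fold.

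Sequences at 7 of the peaks, from the strong and middle part of the order (ranks 239 to 1972), show what lies under those summits. Each is the reference sequence of 40 bp to either side of the IDR summit (WBcel235, which is ce11; RefSeq), written 5' to 3' on the strand of the named gene. None overlaps an annotated exon. Capitals mark the word CGCAAAC, the word GCGCTCC and, at mrps-7, the pattern CTGCGTC, on either strand. The last is a pattern known from worm housekeeping promoters, and the other 2 were picked from sequences at these peaks after they were seen. Every sequence shown holds a marked word or pattern. CGCAAAC was within 100 bp of only 10 of the 38 summits and GCGCTCC of 9, so the 7 do not represent all the peaks.
mrps-7, chrIV:14767860-14767940, minus strand: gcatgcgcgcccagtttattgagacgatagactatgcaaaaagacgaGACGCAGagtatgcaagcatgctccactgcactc
mrps-16, chrII:5474108-5474188, plus strand: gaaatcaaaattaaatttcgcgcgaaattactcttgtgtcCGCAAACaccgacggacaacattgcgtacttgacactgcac
mrpl-28, chrII:156079-156159, minus strand: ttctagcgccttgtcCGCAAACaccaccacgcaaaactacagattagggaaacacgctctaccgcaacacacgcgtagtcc
mrpl-45, chrIII:1202328-1202408, minus strand: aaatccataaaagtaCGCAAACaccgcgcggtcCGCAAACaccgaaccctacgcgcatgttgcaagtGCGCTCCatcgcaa
mrpl-49, chrV:12728420-12728500, plus strand: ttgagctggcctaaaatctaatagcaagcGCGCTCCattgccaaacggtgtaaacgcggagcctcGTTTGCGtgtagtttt
mrpl-1, chrIV:7709856-7709936, minus strand: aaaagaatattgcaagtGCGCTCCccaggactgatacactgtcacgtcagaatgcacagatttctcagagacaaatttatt
mrps-28, chrV:19644083-19644163, plus strand: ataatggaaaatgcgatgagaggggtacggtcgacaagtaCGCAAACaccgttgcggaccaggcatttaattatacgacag

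Only 2 spellings of the E2F-site core were searched, and other spellings of it were not counted. TTCCCGC lay within 100 bp of 5 of the 38 summits on either strand (13.2%, beside 5.69% of all IDR peaks), and within 50 bp of 2 (5.26%, beside 3.57%). The 5 were at mrps-35, mrpl-9, mrps-31, mrps-25 and mrps-6. TTGGCGC lay at 0 of 38, beside 5.40% of all IDR peaks. TTTGAA and TTCGAA, forms of the cell cycle homology region that the DREAM complex reads, lay at 16 (42.1%, beside 36.1%) and at 3 (7.89%, beside 14%). For TTTGAA the windows centred 500 bp to each side of the member summits held it as often, at 42.1%. CTGCGTC lay at 3 (7.89%, beside 20.3%), those of mrps-7, mrpl-37 and mrpl-20, and the repeat GAGAGAG at 5 (13.2%, beside 23.1%). No match says only that these letters are not in the window.

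Among 7-letter words with at least 4 G or C, the most common around the 38 summits was CGCAAAC, at 10 (26.3%). It was at 6.82% of all IDR peaks, at 8.37% of the strongest peaks of all bound genes, at 0 of 76 flanking windows of the mitoribosomal peaks and in 3.1% of all promoters (250 bp before to 50 bp after the most upstream 5' end). The 10 are the peaks of mrpl-12, mrpl-28, mrpl-45, mrpl-49, mrpl-55, mrps-10, mrps-15, mrps-16, mrps-18A and mrps-28, and the 5 large subunit peaks among them ranked 297 to 741 while the small subunit peaks ranked 279 to 3287. GCGCTCC came next, at 9 peaks (23.7%), beside 7.68% of all IDR peaks and 9.17% of the strongest peaks of all bound genes. Those peaks belong to mrpl-1 with mrps-24, mrpl-16, mrpl-2, mrpl-37, mrpl-45, mrpl-47, mrpl-49, mrpl-55 and mrps-9. At mrpl-45, mrpl-49 and mrpl-55 both words were present. The words were chosen for their frequency here, so these shares are a description and carry no test. The promoters of the 31 unbound mitoribosomal genes held CGCAAAC in 1 case and GCGCTCC in 0, beside 3.1% and 1.95% of all promoters. The words were picked at the summits of bound genes, and promoter windows differ from summit windows. These counts therefore give no contrast between bound and unbound genes.

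The middle of the order was filled by mrps-35 (rank 1275), mrpl-18 (1448), mrpl-9 (1454), mrpl-1 and mrps-24 (1924), mrps-28 (1972), mrpl-2 (1977) and mrpl-35 (2114). The weaker peaks were those of mrps-18A (2355), mrps-31 (2367), mrps-18C (2396), mrpl-20 (2489), mrps-25 (2549), mrpl-16 (2648), mrps-6 (2697) and mrps-15 (2721). The products of mrpl-2 and mrpl-16 belong to large subunit families that lie near the peptidyl transferase centre in bacteria, and that of mrps-12 to a family of the decoding site. Weaker still were mrps-12 (2864), mrpl-44 (3000), mrps-18B (3183), mrps-9 (3223), mrps-10 (3287), mrpl-39 (3579), mrpl-34 (4149) and mrps-34 (4202). The signal at mrps-34 was 52.5, close to the lowest of the IDR list, 46.3. Of these last 16 genes 11 encode small subunit proteins.

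The replicates placed the same peaks in nearly the same order. All 38 peaks had a region in both replicate lists that overlapped by at least 1 bp, as did 4525 of all 4534 IDR peaks. The larger replicate rank exceeded the smaller by a median of 1.16-fold, beside 1.17-fold over all IDR peaks, and the replicate summits lay a median of 10.5 bp apart, beside 13 bp. The largest gaps in rank were at mrpl-44 (2814 in replicate 2 and 4050 in replicate 3), mrpl-20 (2981 and 2084) and mrps-10 (2898 and 4031). Replicate 2 ranked the peak higher in 25 cases and replicate 3 in 13. The strongest 4534 regions of each replicate were also taken alone. In replicate 2, 41 mitoribosomal genes were bound (58.6%, beside 19.6% of all protein-coding genes). In replicate 3, 40 were bound (57.1%, beside 19.4%), and 38 were bound in both. Of the 39 genes bound in the IDR list, mrpl-34 and mrps-34 had no summit among the strongest 4534 of replicate 3. Their peaks ranked 4636 and 4745 there. The IDR list was made from these replicates, so some of this agreement is built in.

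Most summits lay just upstream of the gene. The median position was -170 bp, beside -213 bp for all bound genes, and 33 of 39 summits fell within 500 bp upstream of the nearest 5' end. Of the summits 36 lay between protein-coding genes and 3 in an annotated 5' UTR. The closest was at mrpl-47, 3 bp downstream of the 5' end (0 and 13 bp in the replicates), followed by mrps-15 at -24 bp. The summits over 500 bp upstream were those of mrpl-12 (-513 bp), mrpl-15 (-611 bp), mrpl-37 (-635 bp), mrpl-36 (-700 bp) and mrps-21 (-981 bp). In worms the annotated 5' end of a gene is often where a leader is spliced on, so transcription may start further upstream.

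**Figure D2:**
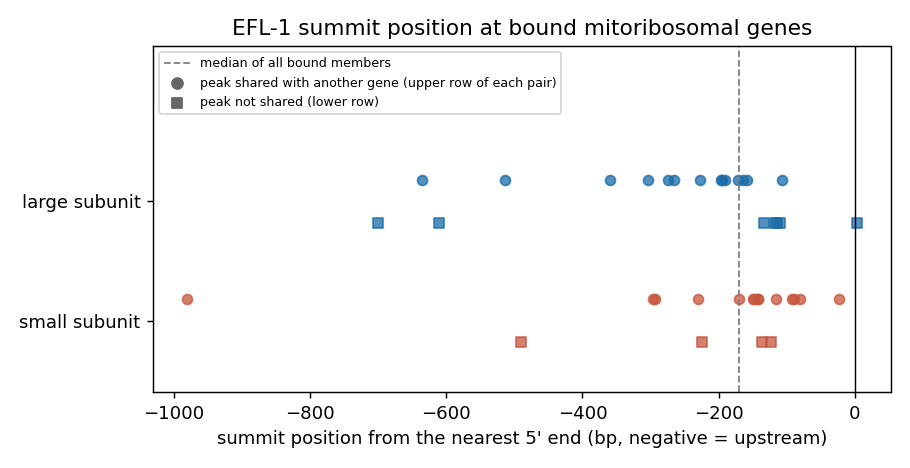
Position of the strongest IDR summit from the nearest annotated 5' end (bp, negative upstream) for the 39 bound genes, by subunit class. Circles are peaks shared with another gene's window and squares are peaks not shared, and the dashed line is the median, -170 bp.

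Many of these peaks stood between a mitoribosomal gene and another gene. At 28 of the 39 bound genes (71.8%, beside 51.3% of all bound genes) the strongest summit also lay in the window of another protein-coding gene, and 26 had such a partner on the opposite strand. The mrpl-49 summit, at -171 bp, lay at -348 bp from rpl-28, a gene of the cytosolic large subunit. The mrps-6 summit, at -294 bp, lay at -251 bp from the proteasome gene rpn-8, and the mrps-10 summit, at -296 bp, at -264 bp from the nuclear pore gene npp-25. Those of mrpl-9 and mrps-18B were shared with kin-3, for a catalytic subunit of casein kinase 2, and with the splicing gene prp-9. The mrps-15 summit was shared with asg-1, for a subunit of ATP synthase, and that of mrpl-17 with the RNA helicase gene vbh-1. The mrpl-1 and mrps-24 peak, at chromosome IV, 7709839 to 7709975, lay at -195 and -149 bp from their 5' ends and -160 bp from emc-6, which encodes a subunit of an endoplasmic reticulum membrane complex. The mrps-21 peak lay nearer to F29B9.11 (-297 bp) and to jmjd-1.2 (-493 bp), a histone demethylase gene, than to mrps-21 itself.

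The remaining shared peaks were those of mrps-7 with Y57G11C.3, mrpl-37 with lin-38, mrpl-45 with Y119D3B.12, mrpl-12 with Y39A1A.21 and Y39A1A.22, mrps-17 with txdc-9, mrpl-40 with attf-3 and F54C4.4, mrps-35 with sws-1 and mrpl-18 with C14B9.8. Further down were mrps-28 with Y43F8C.7, mrpl-35 with M01F1.4, mrps-18A with ZC262.2 and iglr-2, mrps-25 with Y55F3AM.13, mrpl-16 with clp-2 and mrps-12 with exos-7. The last were mrpl-44 with mccc-2, which has the same annotated 5' end, mrpl-39 with gly-7, mrpl-34 with lid-1 and mrps-34 with cisd-3.1. The mitoribosomal gene was the nearest gene to its strongest summit in 24 of 39 cases. Position does not settle which gene a shared peak acts on. At 11 genes the peak was not shared, and these were mrps-16, mrpl-28, mrpl-15, mrpl-36, mrpl-55, mrpl-47, mrpl-2, mrps-31, mrps-18C, mrpl-20 and mrps-9.

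Whether a mitoribosomal gene was bound went with how its neighbours are arranged. A gene was classed as behind a same-strand gene when such a gene ended from 500 bp upstream to 100 bp downstream of its most upstream 5' end, and otherwise as head to head when an opposite-strand gene had a 5' end from 1000 bp upstream to 100 bp downstream. Of the 28 head-to-head mitoribosomal genes 25 were bound (89.3%, beside 45.5% of all head-to-head genes). Of the 15 with neither kind of neighbour 10 were bound (66.7%, beside 13.6%). Of the 27 behind a same-strand gene 4 were bound (14.8%, beside 14.9%), a share at the background for this gap limit. With gaps of at most 200 bp the share was below it (5.0%, beside 12.2%) and with at most 1000 bp above it (23.5%, beside 14.9%). The layouts themselves were uneven, since 27 of 70 mitoribosomal genes lay behind a same-strand gene (38.6%, beside 19% of all genes) and 28 of 70 were head to head, beside 18.2% of all genes.

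A head-to-head gene can be counted through its partner's peak. With each peak given only to the gene of its nearest 5' end, 12 head-to-head mitoribosomal genes (42.9%, beside 23.8%), 3 behind a same-strand gene (11.1%, beside 12.6%) and 10 with neither neighbour (66.7%, beside 12.7%) were bound. The 4 bound genes behind a same-strand gene were mrpl-2, mrps-9, mrps-12 and mrps-21. The gaps to the gene in front were 348 bp at mrpl-2, 257 bp at mrps-9, 461 bp at mrps-12 and 114 bp at mrps-21. At mrps-21 the summit lay beyond the gene in front, F29B9.11.

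**Figure D3:**
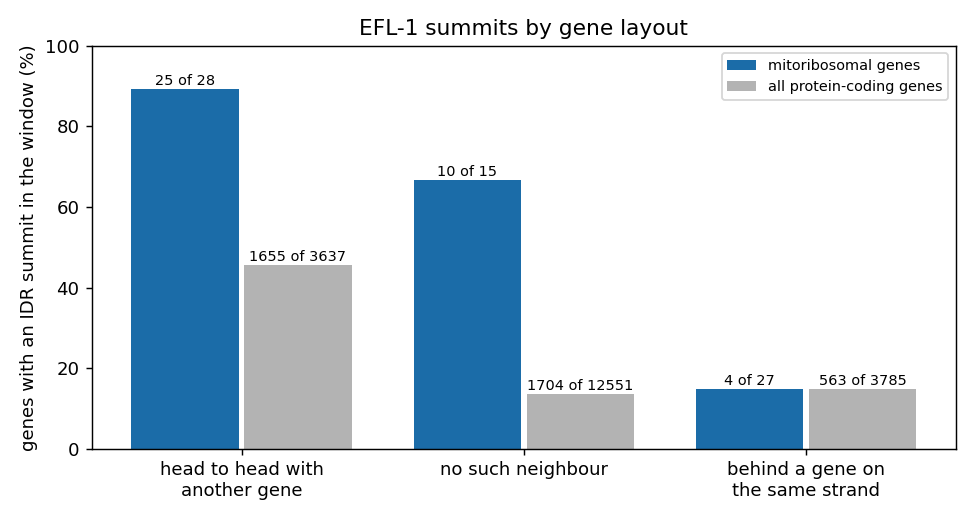
Share of genes with an IDR summit in the window (%), by layout, for mitoribosomal genes (blue) and all protein-coding genes (grey), with counts above the bars. The head-to-head bars stand at 89.3% and 45.5%, and those for genes behind a same-strand gene at 14.8% and 14.9%.

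Most unbound genes lay inside runs of same-strand genes whose front was bound. Of the 31 unbound mitoribosomal genes 23 lay behind a same-strand gene, with gaps of 26 bp (mrpl-50 behind the chaperonin gene cct-2) to 411 bp (mrpl-32 behind the proteasome gene rpn-3). Each run was followed upstream to its first gene by the same gap rule. The first gene was bound for 19 of the 23 (82.6%), beside 36.9% of 3222 unbound genes behind a same-strand gene in the whole annotation. Counting a gene's own window or that of the first gene of its run, 58 of 70 mitoribosomal genes had an IDR summit (82.9%, beside 25.6% of all protein-coding genes), 32 of 41 in the large and 26 of 29 in the small subunit class. The runs are a layout rule and not annotated operons.

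The first genes carried stronger and weaker peaks. The strongest was at W04B5.5, in front of mrpl-30, with rank 130 and the summit at -132 bp. Then came rpn-3 before mrpl-32 (rank 233), the translation initiation factor gene eif-3.E before mrps-30 (346) and vps-37, of a membrane sorting complex, before mrpl-48 (394). The nuclear RNA interference gene nrde-2 before mrps-14 had rank 482, with that summit far upstream, at -926 bp. A weaker IDR summit, of rank 3963, lay at -5253 bp from mrps-14, nearer to the 5' end of nrde-2, 5148 bp upstream of mrps-14. The atp-2 gene, for the beta subunit of ATP synthase, before mrps-26 had rank 543 (summit at -253 bp). Inside that run a weaker IDR summit, of rank 2706, lay at -3943 bp from mrps-26. The 5' end of atp-2 lay 6195 bp upstream of that of mrps-26. The fars-1 gene, for a subunit of phenylalanyl-tRNA synthetase, before mrpl-23 had rank 621 (summit at -892 bp). The clsp-1 gene before mrpl-54 had rank 632 and the acetyltransferase gene natc-1 rank 820. The run of natc-1 holds mrps-2 and then mrpl-4, and the 5' end of natc-1, with its summit at -83 bp, lay 3327 bp upstream of that of mrps-2 and 4906 bp upstream of that of mrpl-4.

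The weaker first genes were T14B4.3 before mrps-18.C (rank 836), misc-1 before mrpl-41 (1112, summit at -802 bp) and tag-124 before mrpl-53 (1141). After them came F21D5.7 before mrps-33 (1171), W04D2.4 before mrps-11 (1196) and F13G3.7 before mrpl-13 (1659). The others were znf-706 before mrpl-42 (2336), rpb-6 before mrps-22 (2871) and cct-2 before mrpl-50 (3227). The rpb-6 gene encodes a shared RNA polymerase subunit, and the gene directly before mrps-22 in that run is dap-3, whose mammalian counterpart is also a small subunit protein of the mitochondrial ribosome. No IDR summit stood at the first genes for 4 genes, namely rnf-145 for mrpl-19, T08A11.1 for mrpl-21, rpa-4 for mrpl-24 and sel-1 for mrps-5. The run of mrpl-24 was still not free of peaks. An IDR summit of rank 1927 lay at -2338 bp from mrpl-24, while the 5' end of rpa-4 lay 4682 bp upstream.

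**Figure D4:**
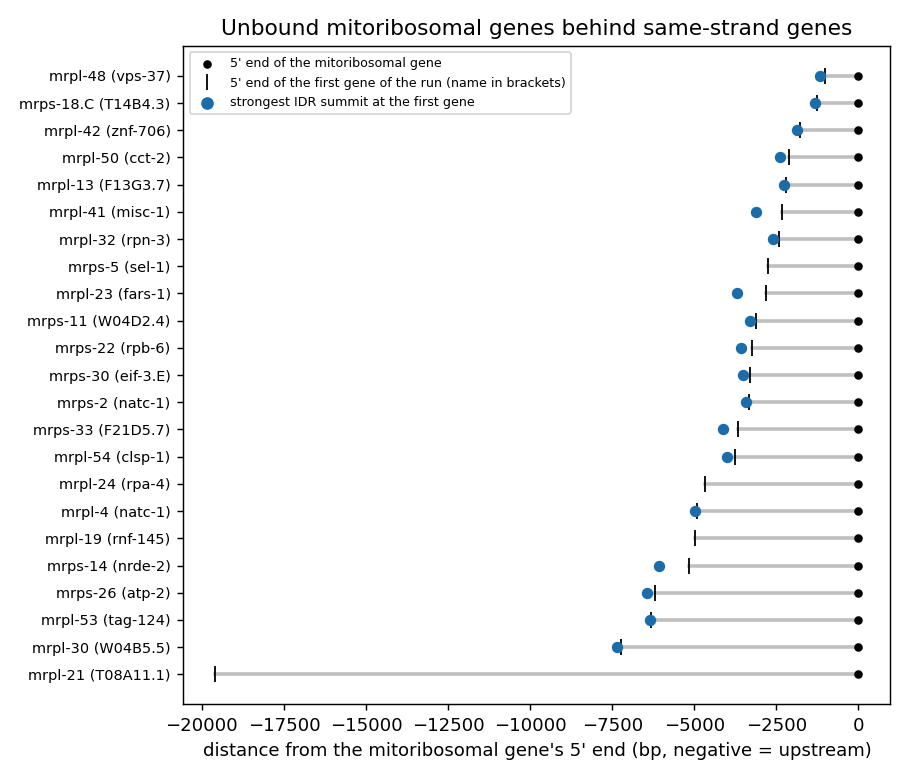
The 23 unbound mitoribosomal genes that lie behind a same-strand gene, each as a line from its 5' end (black point, 0) to the 5' end of the first gene of its run (tick, name in brackets), in bp. Blue points are the strongest IDR summit at that first gene, present for 19 of the 23. Other IDR summits inside a run are not drawn.

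The 8 other unbound genes were mrpl-10, mrpl-51 and mrps-23, which are head to head with another gene, and mrpl-11, mrpl-22, mrpl-38, mrpl-46 and mrps-27, which have neither neighbour. Of all 31 unbound genes 17 had a weaker region of the joint list in the window (54.8%, beside 27.8% of all unbound genes). The joint list holds 21875 regions, with 17341 below the IDR list, and keeps background. The regions at mrpl-19 (joint rank 4549), mrpl-11 (4690), mrpl-38 (4956), mrpl-32 (5098), mrps-23 (5432) and mrpl-48 (6304) had a −log10 q value over 2 by the authors' measure. Such regions stood at 6 of the 31 unbound mitoribosomal genes, beside 862 of 16051 unbound protein-coding genes. At mrpl-19 the signal was 46.1, just under the lowest of the IDR list, with ranks of 5288 in replicate 2 and 3971 in replicate 3. At mrpl-11 they were 5082 and 4214, and at mrpl-38 3951 and 5743, so each passed the first 4534 in a single replicate. At mrpl-23 an IDR summit of rank 1656 lay at -1002 bp, and the replicate summits of that region fell inside the window.

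The weak regions at mrpl-10, mrpl-22, mrpl-23, mrpl-24, mrpl-30, mrpl-42, mrpl-46, mrpl-51, mrpl-53, mrpl-54 and mrps-30 had joint ranks from 9691 to 21556. The joint list had no region in the window of the other 14. These were mrpl-4, mrpl-13, mrpl-21, mrpl-41, mrpl-50, mrps-2, mrps-5, mrps-11, mrps-14, mrps-18.C, mrps-22, mrps-26, mrps-27 and mrps-33. All of them but mrps-27 lie behind a same-strand gene. The lists carry no read totals, so a region may have been missed for want of depth.

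Proteins of the mitochondrial ribosome fall into families shared with bacteria and families that mitochondria added. Grouped by the mammalian counterpart of the same name, after the values were seen, 28 of 44 genes of bacterial families were bound (63.6%). Of 26 genes of mitochondrial families 11 were bound (42.3%), and both shares stand beside 19.6% of all protein-coding genes. The gap between the families was not tested. The layouts differed little in number, with 17 of 44 and 10 of 26 behind a same-strand gene. Of these 4 and 0 were bound, beside 14.9% of all genes in that layout. Among head-to-head genes 17 of 18 and 8 of 10 were bound, beside 45.5% of all head-to-head genes. In mammals the counterparts of mrps-30 and mrps-18A sit in the large subunit, so the worm symbols are only a guide to place. The genes that share the mrps-18 name split, with mrps-18A, mrps-18B and mrps-18C bound on weak peaks of rank 2355 to 3183, and mrps-18.C not bound.

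Other genes of mitochondrial gene expression and upkeep were bound to differing extents, read beside the same 19.6% and without a test. Of 40 symbols listed for mitochondrial translation and assembly 14 had no match in the annotation. Of the 26 genes left 16 were bound (61.5%), with a median percentile of 45.9. Strongest were mtg-1, for a ribosome assembly GTPase (rank 510), sars-2 (547) and ears-2 (927), the last 2 for mitochondrial tRNA synthetases. The elongation factor genes tufm-1 (1256), gfm-1 (2106), tufm-2 (2486) and tsfm-1 (3330) were bound, and so was mrrf-1, for a ribosome recycling factor, on a weak peak of rank 4318 with replicate ranks of 4143 and 7984. Of 16 symbols listed for the mitochondrial genome and its transcription 7 had no match, which left 9 genes. Of these 9 genes 1 was bound, mtss-1, for a single-stranded DNA binding protein (rank 2403). Unbound in that list were the DNA polymerase gene polg-1, the RNA polymerase gene rpom-1, the helicase gene twnk-1, hmg-5, tfbm-1, top-1, hoe-1 and endu-1. The list was written from general knowledge, and nothing here shows that each member acts in mitochondria.

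Among 32 genes of mitochondrial import and quality control 23 were bound (71.9%), with a median percentile of 80.1. The import genes ddp-1 (rank 76) and tomm-20 (94) led, followed by the chaperonin genes hsp-60 and Y22D7AL.10, which share a peak of rank 213. Of 21 genes of the mitochondrial stress response 12 were bound (57.1%). Strongest were the kinase gene gcn-2 (rank 71), the histone methyltransferase gene set-2 (243) and jmjd-1.2 (429), which shares its peak with mrps-21. The gene for the transcription factor atfs-1, which induces the mitochondrial unfolded protein response, had a peak of rank 1165 at -83 bp, with replicate ranks of 1198 and 1180.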

How the data were processed

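The values are narrowPeak lists on ce11 that the authors deposited: 1 list per replicate, a joint list made from both replicates with a control, and the IDR list derived from the joint list, per the deposited description texts. Region signal is a deposited value whose scale the authors' software set, and it served only for ranks inside 1 list. The −log10 q value is also the authors' deposited value. Sources used here do not give an aligner, a peak caller, the IDR threshold or the depth, and the ce10 lists and the control were not used. Peaks are single calls, so no value carries an SD.

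Genes came from Ensembl release 115 (WBcel235, the ce11 coordinates) with 29314 distinct 5' ends on the 6 nuclear chromosomes, and sequence from the RefSeq assembly of the same build, whose chromosome lengths held every peak. Summits were assigned with Python 3.11.15, a step tested on simulated summits. Symbols set which genes entered, but the gene group, the lists of related genes and the patterns were chosen with earlier results of these data known. The layout rule, 7-letter words and protein families were added after the peaks were seen. Of 110 listed symbols 88 matched the annotation, and most of the 22 without a match were in the translation and genome lists. Genes named in full were the strongest 15, all unbound ones, those with the largest replicate gaps or extreme summit positions, and the leaders of each other list. Counts and medians stand beside those of all protein-coding genes, with no test. Alternatives were the window, nearest gene only, the most upstream 5' end, a stricter and a looser list, each replicate alone, the motif width and the layout distances.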

Additional observations from a re-analysis of the deposited data

How the results depend on the processing

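The most upstream 5' end alone changed no count or median of mitoribosomal genes, while some orders between groups turned under other settings. In the strongest 2267 peaks 23 mitoribosomal genes were bound (32.9%, beside 11.8% of all genes), 16 of the large subunit (39%) and 7 of the small (24.1%), which turned the order of the classes, 15 head to head, 2 behind a same-strand gene and 6 with neither neighbour. In these peaks the bacterial families had 17 and the mitochondrial families 6, shared peaks numbered 16, translation and assembly genes 7 and mitochondrial genome genes 0, and the median percentile, within the shorter list, was 67.3. With nearest genes only, 25 mitoribosomal genes (weaker second summits included) were bound (35.7%, beside 14.7%), 12 of the large subunit, 12 head to head (42.9%, below the 66.7% with neither neighbour), 18 of bacterial and 7 of mitochondrial families, with 7 stress response genes and a median position of -148 bp. Within 300 bp of a 5' end 32 were bound (45.7%, beside 12.9%), 18 on shared peaks, with a median position again of -148 bp. Regions of the joint list with a −log10 q value over 2 gave 45 genes (64.3%, beside 24%), 7 behind a same-strand gene, and a median percentile of 68.0. Each replicate alone gave a median percentile of 58.7 to 60.5 and a median position of -175 to -168 bp. TTCCCGC was at 2 peaks within 50 bp (5.26%, beside 3.57% of all IDR peaks).

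The layout counts, added after seeing the data, moved with the distances. With gaps of at most 200 bp 1 of 20 genes behind a same-strand gene was bound (5.0%, beside 12.2% of all such genes), and with at most 1000 bp 8 of 34 (23.5%, beside 14.9%), so the side of the background turned with the gap. The first gene was bound for 16 of 19 and 21 of 26 of the unbound ones. With head-to-head distances of at most 500 bp, 18 of 21 such genes (beside 49.8%) and 17 of 22 with neither neighbour (beside 16.8%) were bound. No paired analysis was possible because there is 1 group and no test. Depth is unknown, so weak or missing regions may reflect it.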

Other observations

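The sequence under mitoribosomal peaks held less G and C than under other peaks. The median GC content within 100 bp of the summit was 35.6% over the 38 mitoribosomal peaks, 40.8% over 2902 strongest peaks of all bound genes and 42.3% over all 4534 IDR peaks. CGCAAAC and GCGCTCC were the most common words of 4 or more G or C at these summits even so. Words of G and C are also affected by this composition, and its part in the shares of CTGCGTC and GAGAGAG was not tested.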
